A study of Rattus norvegicus with 6 samples.

Results

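Peripheral nerve and Schwann cell genes were followed in the inflamed synovium of rats with adjuvant arthritis, treated with triptolide (TP) or saline (AA). The set holds 29 genes of myelin (8 genes), Schwann cell identity (13 genes) and the axon (8 genes). Each was found by its gene name among the non-control spots of the scanner files, which gave 31 probes of 41012, since Mbp and Gfap have 2 probes each. All rats were males of 8 weeks that had received 0.1 ml of Freund's complete adjuvant into the abdominal cavity each day for 18 days. TP rats were given triptolide, a compound of the thunder god vine that dampens transcription, at 0.4 mg/kg daily over 14 days, and AA rats were given the same amount of saline over the same time. Synovium was taken from hind-leg ankles, and its Cy3-labelled RNA was read on Agilent arrays of 1 colour, 3 for TP and 3 for AA. No healthy group was analysed here, and the labels name neither a strain nor separate animals behind the replicates, so p-values reflect the scatter among these samples, part of which may be technical. In bulk tissue, fewer cells of a type and less RNA per cell cannot be told apart.

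Schwann cells are the glia of peripheral nerves. Myelinating Schwann cells wrap large axons in compacted membrane that speeds conduction, whereas non-myelinating Schwann cells ensheathe bundles of small sensory and sympathetic fibres. The transcription factor SOX10 holds the lineage in place and, with EGR2, drives the myelin genes. Synovium carries mostly thin fibres that sense pain and control vessels, and the cell bodies of those neurons lie in ganglia outside the joint. After injury, Schwann cells lower their myelin genes and raise Ngfr, Ncam1, Gap43 and Gfap.

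The probes are oligonucleotides of 60 bases, and 6 of the 31 cross an exon junction on rat build rn4, where the genomic span is longer than the probe. The probes below are 5 of these junction probes, chosen from genes with different array patterns, with the whole hybridising sequence in capitals. They stand for a tight junction gene and a compact myelin gene that were highest on array TP 2, an adhesion gene that was lower on arrays TP 1 and TP 3, a cadherin seen well above background on TP 2 alone, and an axon gene that was highest on AA 2.
Cldn19 probe, chr5:139839975-139840135, plus strand: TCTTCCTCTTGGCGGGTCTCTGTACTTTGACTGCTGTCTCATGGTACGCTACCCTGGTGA
Mbp probe, chr18:79044276-79046214, plus strand: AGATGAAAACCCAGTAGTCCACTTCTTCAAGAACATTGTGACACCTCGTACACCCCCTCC
Ncam1 probe, chr8:52825923-52826918, minus strand: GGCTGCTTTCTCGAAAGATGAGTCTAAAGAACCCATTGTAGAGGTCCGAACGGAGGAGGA
Cdh19 probe, chr13:18227642-18230162, minus strand: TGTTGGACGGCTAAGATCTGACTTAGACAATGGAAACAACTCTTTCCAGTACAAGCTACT
Uchl1 probe, chr14:44117705-44118696, minus strand: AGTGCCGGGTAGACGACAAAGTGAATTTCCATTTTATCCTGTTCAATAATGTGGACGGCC

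RefSeq start sites on build GRCr8 were matched by symbol for 18 of the 29 genes, with 19 start sites because Mbp has 2. Windows of 300 bases, 250 of them upstream, were searched on both strands for the SOX core ACAAAG or ACAATG and for the EGR core GTGGGNG. A SOX core lay in 4 of the 19 windows (21.1%), those of Cnp, Mag, Tubb3 and the downstream start of Mbp, against 29.1% of all 33469 windows. An EGR core lay in 7 of the 19 windows (36.8%), against 28.8% of all windows. The upstream bases of Mbp and Mag, myelin genes highest on TP 2, are given, with the SOX letters in capitals. In Mbp the cores begin at positions -240, -197 and -162 from the start site, and in Mag at -152.
Mbp upstream, chr18:78209995-78210244, plus strand: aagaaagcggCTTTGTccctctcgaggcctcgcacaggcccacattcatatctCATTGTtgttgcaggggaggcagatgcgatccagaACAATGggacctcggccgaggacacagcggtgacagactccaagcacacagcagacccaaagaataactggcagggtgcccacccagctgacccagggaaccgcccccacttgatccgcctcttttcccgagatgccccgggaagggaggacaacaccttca
Mag upstream, chr1:95291045-95291294, minus strand: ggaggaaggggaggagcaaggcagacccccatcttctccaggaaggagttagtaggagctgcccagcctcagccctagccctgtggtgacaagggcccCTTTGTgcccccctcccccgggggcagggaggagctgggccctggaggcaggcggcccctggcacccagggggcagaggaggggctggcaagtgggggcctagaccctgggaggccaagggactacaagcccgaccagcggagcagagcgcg

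Levels are log2 processed intensity minus the array's own 75th percentile, so 0 is that percentile and each step of 1 is 2-fold. A probe counted as seen on an array where the scanner software called it well above background, and it was tested where that held on at least 3 of the 6 arrays. That left 20 genes of the set, 7 of myelin, 8 of Schwann cell identity and 5 of the axon, among 25777 probes tested (11750 genes). Every tested gene was well above background on at least 1 array of each group. Nefh, the heavy neurofilament chain, Gfap, a glial filament protein, Erbb3, the Schwann cell receptor for neuregulin, and Foxd3, a neural crest transcription factor, were not well above background on any array, in the case of Gfap on either probe. Nefl, the light neurofilament chain, Cdh19, a Schwann lineage cadherin, and Gjb1, a connexin of myelinating Schwann cells, were well above background on TP 2 alone. Nefm, the medium neurofilament chain, and Pou3f1, a transcription factor of promyelinating Schwann cells, were so on TP 2 and AA 2. The neurofilaments of the axon were thus seen on 1 or 2 arrays or none. The other axon genes, Gap43, Prph, Stmn2, Tubb3 and Uchl1, were well above background on all 6 arrays.

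Spots called well above background made up 59.6% to 64.3% of non-control spots on TP arrays and 62.6% to 65.1% on AA arrays. Slide 1 held TP 1 and all 3 AA arrays, and slide 2 held TP 2 and TP 3, so slide and group are largely confounded. With 3 arrays a group, their number limits the precision. Arrays TP 2 and AA 2 stood apart. TP 2 was highest for most nerve genes and for smooth muscle and endothelial markers, and AA 2 was highest for all 15 tested skeletal muscle markers, whose summed signal relative to the 75th percentile was 110, 4.29 and 95.9 on TP 1 to TP 3 and 5.44, 6314 and 5.37 on AA 1 to AA 3. Results are therefore given with and without TP 2.

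Between TP and AA synovium, no gene of the set passed limma's test at an adjusted p under 0.05 (lowest adjusted p = 0.994), and the share over all tested probes was 0.0%. At an unadjusted p under 0.05, 1 of the 20 tested genes was lower with TP, Gap43, and none was higher, whereas 1.23% of all tested probes were lower and 2.01% higher. The groups did not overlap for 2 of the 20 genes. Cnp was higher on every TP array than on any AA array, as were 4.77% of probes, and Gap43 was lower, as were 3.87%. The median difference was 0.39 over the 20 genes and 0.03 over all tested genes. Within the TP group the arrays differed widely: 15 of the 20 genes were highest on TP 2, as were 24.4% of all tested probes, and 12 of the 20 were at least 2-fold above every other array there, as were 1.88% of probes. By role, 7 of 7 myelin genes, 7 of 8 Schwann cell genes and 1 of 5 axon genes were highest on TP 2. These counts describe TP 2 against 5 other arrays, and a difference of 1 array carries no test.

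**Figure D1:**
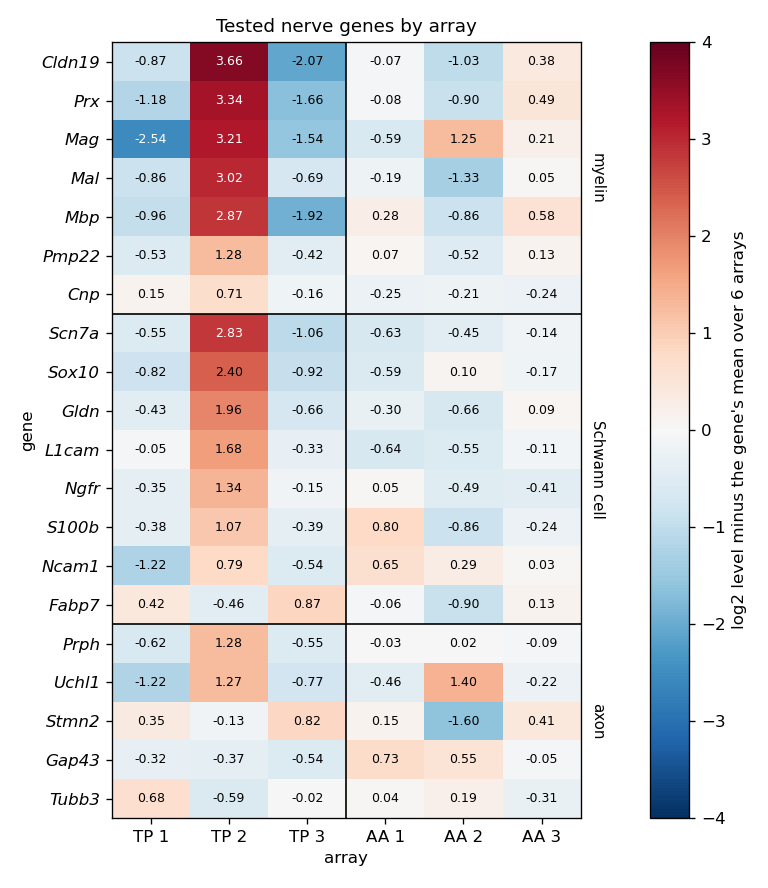
Log2 level of each tested gene minus its own mean over the 6 arrays (colour and printed value), with genes in rows by role and arrays in columns, TP before AA. The TP 2 column is the highest of every myelin row and of all Schwann cell rows but Fabp7, with the largest value at 3.66 for Cldn19, while Gap43 is lower on all 3 TP arrays than on any AA array.

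Myelin genes gave the widest spread between arrays. Cldn19, the claudin that seals Schwann cell membranes at the node and in the myelin sheath, stood at -3.14, 1.40 and -4.34 on TP 1 to TP 3, against -2.33, -3.29 and -1.89 on AA 1 to AA 3. TP 2 was 9.74-fold above the highest other array, and TP 3, hybridised on the same slide as TP 2, was the lowest array of all. The group difference was 0.48 (SE 1.44).

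Prx, periaxin, a scaffold that Schwann cells need to hold myelin stable, stood at -2.10, 2.42 and -2.58 on the TP arrays, against -0.998, -1.83 and -0.43 on the AA arrays. TP 2 was 7.19-fold above the highest other array, and TP 1 and TP 3 lay below all 3 AA arrays. The group difference was 0.33 (SE 1.32).

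Mbp, myelin basic protein, which binds the inner faces of the myelin membrane together, stood at -1.96, 1.87 and -2.92 on the TP arrays, against -0.72, -1.86 and -0.42 on the AA arrays. Its other probe, the junction probe shown above, stood at -2.92, 1.36 and -3.03 on the TP arrays, against -1.64, -3.36 and -1.20 on the AA arrays. Both probes were highest on TP 2, by 4.87-fold and 5.91-fold over the next array, and lower on TP 1 and TP 3 than on AA 1 and AA 3. They differed in AA 2, which was the lowest array of the other probe only, so that TP 1 and TP 3 lay below every AA array on the first probe alone. The group difference was -0.01 (SE 1.22) on the brighter probe and 0.54 (SE 1.27) on the other.

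Mag, the adhesion molecule of the myelin membrane that faces the axon, stood at -6.45, -0.69 and -5.45 on the TP arrays, against -4.50, -2.65 and -3.69 on the AA arrays. Of the TP arrays, TP 2 alone was well above background, so the TP 1 and TP 3 values are at background, whereas all 3 AA arrays were well above it. TP 2 was 3.89-fold above the highest other array, AA 2, and the group difference was -0.58 (SE 1.49).

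Mal, a raft proteolipid of myelin, stood at -2.34, 1.54 and -2.17 on the TP arrays, against -1.67, -2.81 and -1.43 on the AA arrays, with TP 2 at 7.83-fold above the next array. Pmp22, the compact myelin protein whose gene dosage underlies inherited neuropathy, stood at 5.71, 7.52 and 5.81 on the TP arrays, against 6.31, 5.72 and 6.36 on the AA arrays. TP 2 was 2.22-fold above the next array for Pmp22, and for both genes the other TP arrays lay within the AA range or just under it. Cnp, a phosphodiesterase of non-compact myelin that other cells also express, stood at -1.19, -0.64 and -1.50 on the TP arrays, against -1.59, -1.55 and -1.58 on the AA arrays. It was the myelin gene whose TP arrays all lay above all AA arrays, with a difference of 0.47 (SE 0.24, limma adjusted p = 0.994). Under normexp background correction the count of genes with separate groups was 1 instead of 2.

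Among Schwann cell genes, Sox10, the lineage transcription factor, stood at -1.51, 1.71 and -1.61 on the TP arrays, against -1.28, -0.59 and -0.86 on the AA arrays. TP 2 was 4.95-fold above the highest other array, and TP 1 and TP 3 were the lowest arrays. Scn7a, a sodium channel protein of non-myelinating Schwann cells, stood at -0.57, 2.82 and -1.08 on the TP arrays, against -0.64, -0.46 and -0.15 on the AA arrays, with TP 2 at 7.82-fold above the next array. Gldn, gliomedin, which Schwann cells release to cluster sodium channels at the node, stood at -1.78, 0.61 and -2.01 on the TP arrays, against -1.65, -2.00 and -1.26 on the AA arrays. Its TP 2 value was 3.66-fold above the next array, and its other 2 TP values overlapped those of AA.

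L1cam, an adhesion molecule of axons and non-myelinating Schwann cells, stood at -1.46, 0.27 and -1.74 on the TP arrays, against -2.05, -1.96 and -1.52 on the AA arrays. TP 2 was 3.32-fold above the next array, and the group difference was 0.87 (SE 0.54). Ngfr, the neurotrophin receptor that Schwann cells raise after injury, stood at -2.27, -0.58 and -2.07 on the TP arrays, against -1.87, -2.41 and -2.33 on the AA arrays. TP 2 was 2.45-fold above the next array. Ngfr is printed in 10 spots an array, over which the SD was 0.05 to 0.18, a spread within the array only. Cdh19, the cadherin whose probe is shown above, stood at -6.24, -1.78 and -6.19 on the TP arrays, against -6.73, -5.33 and -5.05 on the AA arrays, and all but TP 2 are background values. With the AA values raised to the detection floor and the TP values kept as measured, the TP mean of Cdh19 was 1.08-fold above the AA mean. That rests on TP 2 alone.

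The remaining Schwann cell genes followed TP 2 less. S100b, a calcium-binding marker of Schwann cells that chondrocytes and adipocytes also make, stood at -4.23, -2.78 and -4.24 on the TP arrays, against -3.05, -4.71 and -4.08 on the AA arrays. TP 2 exceeded AA 1 by 1.20-fold, and 2 arrays of each group were well above background. Ncam1, the neural cell adhesion molecule, stood at -4.60, -2.58 and -3.92 on the TP arrays, against -2.72, -3.09 and -3.34 on the AA arrays. TP 2 was 1.10-fold above AA 1, while TP 1 and TP 3 lay below all 3 AA arrays, TP 1 at background. Fabp7, a fatty acid binding protein of immature glia, stood at -2.23, -3.11 and -1.79 on the TP arrays, against -2.71, -3.55 and -2.53 on the AA arrays. It was the Schwann cell gene not highest on TP 2: TP 3 and TP 1 lay above every AA array, and TP 2 among them.

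Of the 5 tested axon genes, Prph alone was highest on TP 2. Gap43, a growth cone protein that repair Schwann cells also make, stood at -0.12, -0.16 and -0.34 on the TP arrays, against 0.94, 0.76 and 0.16 on the AA arrays. All 3 TP arrays were lower than any AA array, with AA 3 nearest to them. The SD over the 7 to 9 usable spots of the probe was 0.04 to 0.09 on each array, a spread within the array only. The difference was -0.83 (SE 0.23), or 0.56-fold, with an unadjusted limma p of 0.011 and an adjusted p of 0.994. It was -0.67 to -1.05 when any 1 array was left out. Groups that do not overlap keep it below 0 by construction.

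Prph, peripherin, the intermediate filament of peripheral neurons, stood at 0.53, 2.43 and 0.60 on the TP arrays, against 1.13, 1.17 and 1.06 on the AA arrays. The AA arrays were tight (SD 0.05, n = 3), with TP 2 at 2.40-fold above the highest of them and TP 1 and TP 3 below all of them. Uchl1, an abundant neuronal ubiquitin hydrolase, stood at -3.49, -1.01 and -3.05 on the TP arrays, against -2.74, -0.88 and -2.50 on the AA arrays. Its highest array was AA 2, just above TP 2, and TP 1 and TP 3 were the lowest.

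Stmn2, a microtubule regulator of growing axons, stood at 2.23, 1.75 and 2.70 on the TP arrays, against 2.03, 0.28 and 2.29 on the AA arrays. Tubb3, the tubulin of neurons, which dividing non-neural cells can also express, stood at -0.09, -1.36 and -0.79 on the TP arrays, against -0.73, -0.58 and -1.08 on the AA arrays. Stmn2 was highest on TP 3 and lowest on AA 2, Tubb3 was highest on TP 1 and lowest on TP 2, and the groups overlapped for both. Nefl stood at -4.24 on TP 2 and was at background on the other arrays, and Nefm stood at -3.29 on TP 2 and -4.13 on AA 2.

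**Figure D2:**
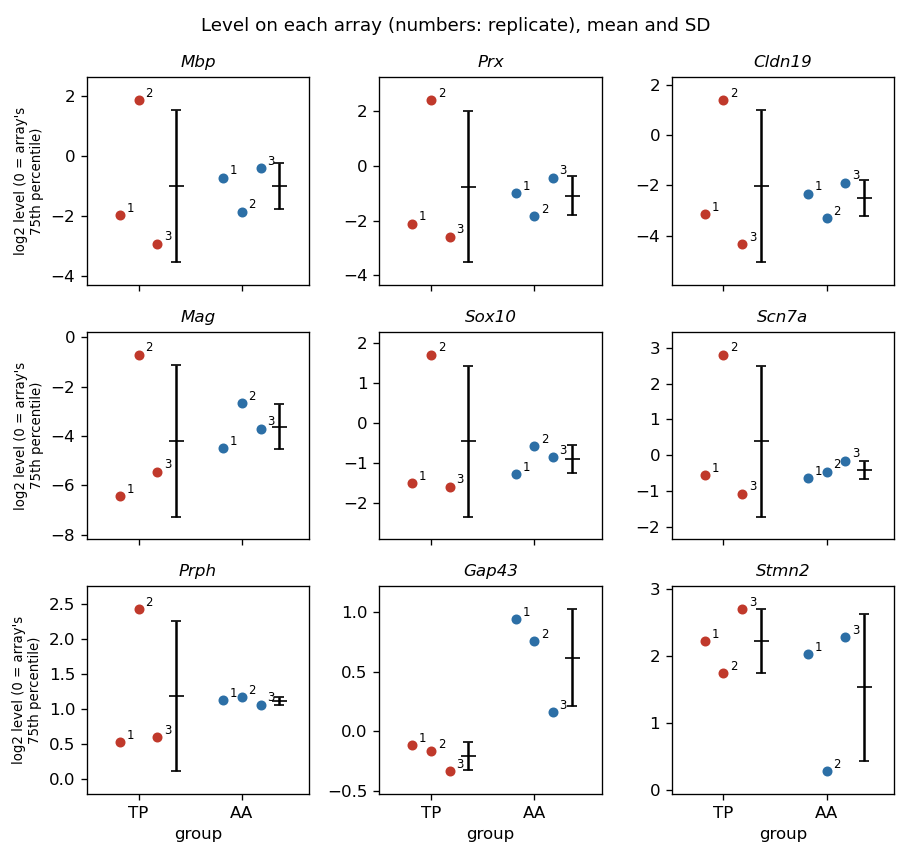
Log2 level on each array (points, with the replicate number) for 9 genes of the set, with TP left of AA and the group mean and SD beside the points, where 0 is the array's 75th percentile. TP 2 is the top point of 7 panels, from Mbp to Prph, TP 1 and TP 3 lie below all AA points in Mbp, Prx, Mag, Sox10, Prph and Gap43, and Gap43 alone of the 9 has separate groups with all arrays in.

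TP 2 stood apart by these same nerve genes, so leaving it out lowers the TP mean by construction, and the values without it are a description. The median difference without TP 2 was -0.39, against 0.05 over all tested genes, and 14 of the 20 genes were below 0. TP 1 and TP 3 both lay below every AA array for 8 of the 20 genes, Mbp, Prx, Mag, Sox10, Ncam1, Gap43, Prph and Uchl1, as did 12.0% of all tested probes. Both lay above every AA array for Cnp and Fabp7, as did 16.0% of probes. The largest differences without TP 2 were those of Mag (-2.33, SE 0.61), Mbp (-1.44, SE 0.53), Prx (-1.26, SE 0.44), Cldn19 (-1.23, SE 0.55), Uchl1 (-1.23, SE 0.60) and Ncam1 (-1.21, SE 0.29). The Mag value rests on TP arrays at background. Sox10 differed by -0.65 (SE 0.24) and Prph by -0.55 (SE 0.14).

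None of the 20 passed limma's adjusted threshold without TP 2 (lowest adjusted p = 0.747), nor did any tested probe (0.0%). At an unadjusted p under 0.05, 7 genes were lower and 1, Fabp7, was higher, and of all tested probes 3.1% were lower and 3.33% higher. Most of these genes were highest on the array left out, which all tested probes were not. The counts are therefore no test of the set. TP 1 was hybridised on slide 1 with the AA arrays, and within that slide the median difference was -0.39, with TP 1 as the sole TP array and the same 3 AA arrays, so it is no separate check. When AA 2, the array highest in skeletal muscle markers, was left out as well, 13 of the 20 genes lay lower on TP 1 and TP 3 than on AA 1 and AA 3, as did 23.3% of probes, and 2 lay higher, as did 21.7%. Skeletal muscle markers still differed between these arrays, with summed signals of 110 and 95.9 on TP 1 and TP 3 against 5.44 and 5.37 on AA 1 and AA 3, and their part in the result was not tested. In that fit of 4 arrays, chosen after the data were seen, none of the 20 passed the adjusted threshold, against 24 probes of all tested (0.0931%). The sign of the set's difference thus turned with 1 array: 15 of the 20 genes were above 0 with TP 2 and 14 of the 20 below 0 without it.

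**Figure D3:**
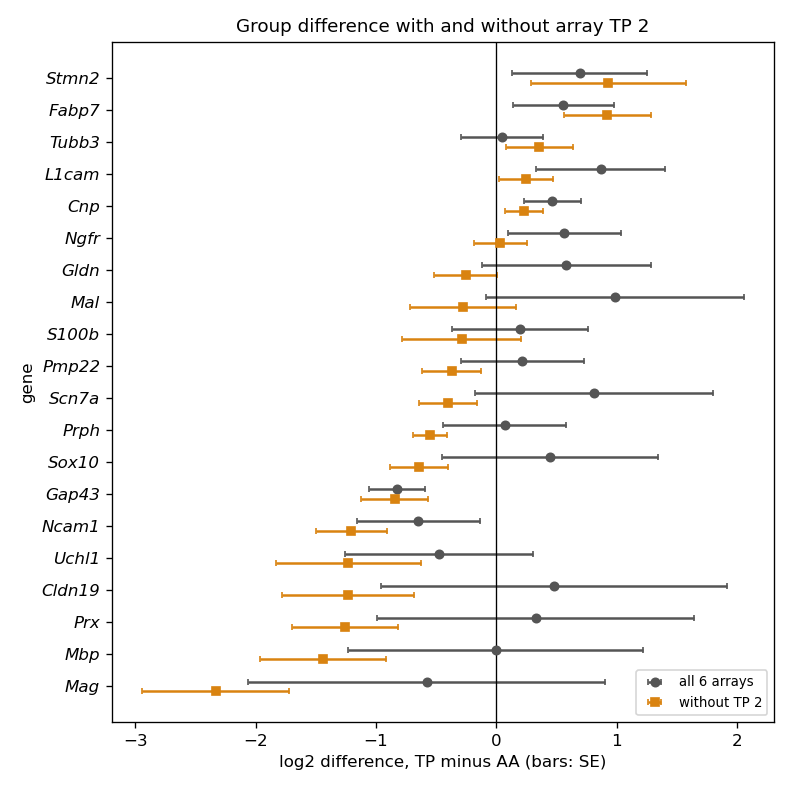
Log2 difference, TP minus AA, for each tested gene with all 6 arrays (circles) and without TP 2 (squares), with bars for the SE. Most squares lie left of their circles, from -2.33 for Mag, while Gap43 stays near -0.83. Stmn2, Fabp7, Cnp, L1cam, Ngfr and Tubb3 lie above 0 both ways.

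Other nerve genes, from lists of myelin, node, perineurium and neuron genes, were read on the same arrays. Of 22 further myelin and Schwann cell genes, 15 were tested. Of these, 11 were highest on TP 2, as were 24.4% of all tested probes. At least 2-fold above every other array there were 6 of them, as were 1.88% of probes. None of them passed the adjusted threshold. Pllp, plasmolipin, was 2.91 above the next array on TP 2 and Dhh, the hedgehog signal by which Schwann cells organise the perineurium, 2.33 above it, both as log2 differences.

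Of 12 axolemma and node genes, 7 were tested and 5 were highest on TP 2, against 24.4% of all tested probes. Kcna1, a potassium channel of the axon beside the node, stood at -1.41, 2.78 and -1.89 on the TP arrays, against -0.54, -0.20 and 0.06 on the AA arrays, and Kcna2, its partner, was 2.07 above the next array on TP 2. Nfasc, Sptbn4, Scn8a and Ncam2 were not well above background on any array. All 6 perineurium genes were tested, 5 were highest on TP 2, and 4 were at least 2-fold above every other array there (1.88% of all tested probes). Itgb4, an integrin of the perineurial basement membrane that epithelia also carry, stood at 4.57, 6.81 and 4.58 on the TP arrays, against 4.53, 4.50 and 5.12 on the AA arrays. The summed signal of the perineurium genes was 71.9, 127 and 44.4 on the TP arrays and 36.6, 33.8 and 51.4 on the AA arrays. Such a sum follows the brightest genes of the list. On TP 1 the median over these genes of the log2 level minus the gene's mean over 6 arrays was -0.45.

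Neuron cell body and transmitter genes were largely unseen: 9 of 18, among them Th, Dbh, Tac1, Snap25 and Scn10a, were not well above background on any array, and 5 were tested. Npy, the peptide transmitter of sympathetic fibres, stood at 2.75, 3.28 and 1.68 on the TP arrays, against 1.23, 1.39 and 1.35 on the AA arrays. All 3 TP arrays were higher than any AA array, as for 4.77% of all tested probes, with a difference of 1.25 (SE 0.40, limma adjusted p = 0.994). Of 16 genes of neurotrophic and neuregulin signalling, 13 were tested, 9 were highest on TP 2 (24.4% of all tested probes), and none passed the adjusted threshold. Cntf, a survival factor stored in myelinating Schwann cells, was 2.15 above the next array on TP 2. Artn, a growth factor for sensory and sympathetic neurons, named after its values were seen, stood at -1.32, -0.88 and -1.17 on the TP arrays, against -1.69, -1.69 and -1.60 on the AA arrays. Its TP arrays were likewise all higher (4.77% of probes), with a difference of 0.54 (SE 0.17, limma adjusted p = 0.994). Of 10 genes of repair Schwann cells, 7 were tested and 2 were highest on TP 2 (28.6%), near the share of all tested probes. The summed signal of the list overlapped between groups (39.9 to 52.9 on TP arrays, 42.1 to 49.0 on AA arrays). That sum follows the brightest genes of the list, Jun, Id2, Mcam and Sox4. Tgfa, the gene of the list with the widest range, was 2.76 above the next array on TP 2 as a log2 difference.

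Markers of other cell types moved with the nerve genes on TP 2. Of 12 smooth muscle and pericyte markers, 10 were tested and the other 2, Acta2 and Synpo2, were not analysed here. Of the 10, 9 were highest on TP 2 (24.4% of all tested probes) and 8 were at least 2-fold above every other array there (1.88%). For 6 of them TP 1 and TP 3 lay below every AA array (12.0% of probes). Their summed signal was 34.8, 150 and 32.1 on TP 1 to TP 3, against 45.2, 146 and 45.3 on AA 1 to AA 3, where the AA 2 sum holds desmin, which skeletal muscle shares. Myh11, the myosin of smooth muscle, stood at 0.07, 4.28 and -0.56 on the TP arrays, against 0.31, 0.90 and 0.98 on the AA arrays. All 8 endothelial markers were highest on TP 2, 1 by at least 2-fold, with sums of 24.3, 53.5 and 22.0 on the TP arrays and 25.1, 21.2 and 27.3 on the AA arrays. Of 9 chondrocyte markers, 6 were tested and 3 were highest on TP 2, Acan and Hapln1 were not well above background on any array, and the sums were 29.8, 49.3 and 33.0 on TP arrays and 29.3, 31.2 and 44.3 on AA arrays.

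Immune and fibroblast markers did not peak on TP 2, where 24.4% of all tested probes were highest. All 9 macrophage markers and all 8 T cell markers were tested and none was highest on TP 2. The summed macrophage signal was 698, 428 and 788 on the TP arrays and 593, 435 and 708 on the AA arrays, and the T cell sum was 16.3, 7.19 and 18.8 on the TP arrays and 17.2, 6.74 and 17.6 on the AA arrays. None of the 10 synovial fibroblast markers was highest on TP 2, with sums of 750, 661 and 730 on the TP arrays and 816, 656 and 922 on the AA arrays. Adipocyte markers were highest on TP 2 for 2 of 7 genes (28.6%), near the share of all tested probes. They summed to 473, 676 and 435 on the TP arrays and 719, 359 and 378 on the AA arrays. Melanocyte markers, which share the neural crest origin of Schwann cells, had 0 of 4 tested genes highest on TP 2, with Tyr and Dct not well above background on any array. Among keratinocyte markers, Krt14 and Krt1 were tested and both were highest on TP 2, by 0.23 and 0.27 on the log2 scale, while Krt10, Dsg1 and Ivl were not well above background on any array. The part of these cell types in the nerve gene values was not tested.

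**Figure D4:**
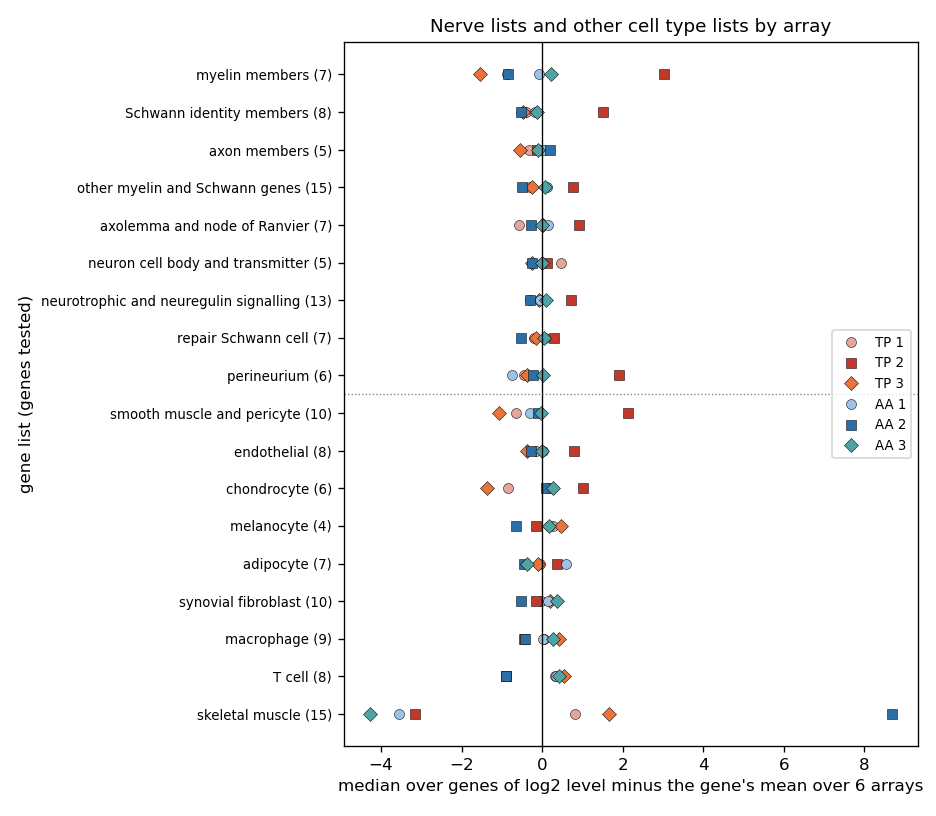
Median over the tested genes of each list of the log2 level minus the gene's mean over 6 arrays, with 1 point for each array and the number of tested genes in brackets, nerve lists above the dotted line and other cell types below it. TP 2 lies at 3.02 for the myelin genes, 1.51 for the Schwann cell genes, 1.91 for perineurium and 2.13 for smooth muscle, and AA 2 at 8.68 for skeletal muscle.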

How the data were processed

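Per the labels, the 6 samples are 3 TP and 3 AA synovia of rats, each hybridised to its own array. The authors deposited scanner files with spot intensity on a linear scale, background-subtracted and detrended within the array by Agilent Feature Extraction 10.7.3.1, per the file headers, though version 9.1 stands in the submitters' processing notes. Per the file headers, probes are placed on rn4. A table the authors deposited holds log2 values for 167 rows, 0 of them on a probe of the set. Control spots and outlier flags were left out, each array's 75th percentile was subtracted after log2, and spots of a probe were averaged. A gene's brightest probe over the 6 arrays stands for it. limma 3.58.1 in R 4.3.3 (lmFit, eBayes, TP minus AA, Benjamini-Hochberg adjustment over 25777 probes) was the test, and it was checked on simulated data. Symbols came from RefSeq by accession for 18028 probes, by symbol for 3169 and by synonym for 402, and 19413 kept the file's name. Members and lists were chosen with earlier results of these data known, and no list was tested. Named genes were all 29 members and, from each other list, up to 4 tested genes with the widest range across arrays. Same-numbered TP and AA samples did not deviate together (correlations -0.16, -0.13 and 0.00), so the numbers were not taken as pairs. Alternatives covered the background correction, the normalization, the filter, slide, replicate number and each array left out. A few genes of the other lists are not reported here. Exon and UTR positions of probes and protein sequences were not analysed here.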

Additional observations from a re-analysis of the deposited data

How the results depend on the processing

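No gene of the set passed the adjusted threshold under any alternative run, and over all tested probes the count was 0 in each except with AA 1 and AA 3 against TP 1 and TP 3, where it was 24. The deposited table holds no probe of the set and gave no value. The median difference of 0.39 was 0.32 under normexp, 0.41 under quantile normalization, 0.44 without a filter, 0.46 with all 6 arrays required, -0.39 with a slide block and within slide 1 alone (the same estimate, since slide 2 holds only TP arrays), -0.39 to 0.57 with 1 array left out (lowest without TP 2) and -0.55 in the 4-array fit. The count of genes with separate groups, 2 of 20, was 1 under normexp, 10 without TP 2 and 15 in the 4-array fit. The last 2 counts were chosen after the data were seen and have fewer arrays to separate: 12.0% of all tested probes were lower and 16.0% higher without TP 2, and 23.3% lower and 21.7% higher in the 4-array fit. The count highest on TP 2, 15 of 20, was 13 under normexp and 15 under quantile normalization. With the replicate block, which rests on numbers that do not pair the samples, the median was 0.39, 0 genes and 0 probes passed, and 1066 probes against 835 had an unadjusted p under 0.05.

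Single genes turned sign as follows, with the cause not tested for the background and normalization settings. Under normexp, Mbp was 0.17, Mag 0.026, S100b -0.064 and Tubb3 -0.052. Mbp was 0.018 under quantile normalization and 0.54 on its other probe. With a slide block and also within slide 1 alone, Prx was -1.02, Cldn19 -0.63, Sox10 -0.60, Prph -0.59, Pmp22 -0.42, Mal -0.36, S100b -0.28, Scn7a -0.15, Gldn -0.14 and Ngfr -0.068. In the 4-array fit, Prx and Cldn19 were -1.63, Mal -0.70, S100b -0.67, Pmp22 -0.58, Prph -0.53, Sox10 -0.49, Gldn -0.44, Scn7a -0.43 and Ngfr -0.071. Leaving out each array gave -1.23 to 1.63 for Cldn19, -1.26 to 1.24 for Prx, -1.44 to 0.95 for Mbp, -2.33 to 0.55 for Mag, -0.28 to 1.66 for Mal and -0.37 to 0.53 for Pmp22. It gave -0.65 to 1.01 for Sox10, -0.40 to 1.54 for Scn7a, -0.26 to 1.05 for Gldn, -0.29 to 0.65 for S100b, -0.55 to 0.40 for Prph, -0.28 to 0.36 for Tubb3 and -1.23 to 0.10 for Uchl1. The lowest of these came without TP 2 for each of them but Tubb3. Gap43, Ncam1, Stmn2, L1cam, Cnp and Fabp7 kept their sign under every alternative run. Signal near background limits S100b, Mag and Ncam1, which were well above it on 4 or 5 arrays.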

Other observations

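Genes outside the set were also far higher on TP 2. Genes were ranked by the TP 2 level minus the mean of the other 5 arrays over 11750 genes. Of the 20 members ranked, 6 stood among the highest 50 and 14 among the highest 500. Stmn2, Gap43, Fabp7 and Tubb3 ranked from 7212 to 10861. For the members this restates the TP 2 levels given above. Pnoc, Pmp2, Cnmd, Cnn1, P2rx1 and Apod were picked from that ranking after their values were seen. Pnoc, the precursor of the opioid peptide nociceptin, stood at -5.43, 0.04 and -6.79 on the TP arrays, against -6.93, -3.20 and -3.78 on the AA arrays. Its TP 1, TP 3 and AA 1 values lie below the lowest signal called well above background on those arrays, so the size of its excess is not measured. Pmp2, a lipid-binding protein of peripheral myelin, stood at -2.66, 2.99 and -3.35 on the TP arrays, against -0.48, -3.81 and -0.04 on the AA arrays. Cnmd, chondromodulin, a cartilage and tendon inhibitor of vessel growth, stood at -2.14, 3.49 and -3.39 on the TP arrays, against 0.26, -3.0 and 0.61 on the AA arrays. For Pmp2 and Cnmd the order of the arrays resembled that of Cldn19, with AA 3 and then AA 1 next after TP 2.

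Cnn1, calponin of smooth muscle, P2rx1, an ATP-gated channel of smooth muscle, and Apod, a lipid carrier of fibroblasts and glia, were highest on TP 2 as well, at 0.17, 0.52 and 5.87. The next array was AA 3 for each, at -3.74, -3.47 and 3.82. On TP 1, TP 3 and AA 1, Cnn1 lay below the lowest signal called well above background. The size of its excess over the mean of the other arrays is therefore not measured.

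Tyrp1, an enzyme of melanin synthesis, had the largest group difference of the 4 tested melanocyte genes and did not follow TP 2. It stood at -3.37, -3.53 and -4.18 on the TP arrays, against -6.63, -4.91 and -7.16 on the AA arrays, where it was not well above background on any of the 3. It was at least 2.23-fold higher in TP (limma adjusted p = 0.994). All 3 TP arrays were higher than any AA array, as for 4.77% of all tested probes. Tyrp1 passed the filter through the 3 TP arrays alone, so neither this separation nor the p-value is support for a difference. Mlana, another melanocyte gene, stood at 0.13, -0.53 and 0.95 on the TP arrays, against 0.91, -1.22 and 1.19 on the AA arrays.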
